A study of Homo sapiens with 3 samples.

Results

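The matrix metalloproteinases (MMP), the ADAM and ADAMTS proteases and the tissue inhibitors of metalloproteinases (TIMP) were followed in Cal62 cells, a human thyroid cancer cell line, after silencing of ADAR1. The members were the protein-coding genes whose symbol was MMP, ADAM, ADAMTS or TIMP followed by a number and at most one letter. They comprised 66 of the 58333 genes of the expression table: 23 MMPs, 20 ADAMs, 19 ADAMTS genes and 4 TIMPs. Pseudogenes of the families, such as ADAM6 and MMP23A, were not members.

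All cells were grown in DMEM with serum and transfected with Lipofectamine RNAiMAX. They received a negative control siRNA (siControl) or 1 of 2 siRNAs against ADAR1, the RNA-editing enzyme encoded by ADAR, named siADAR1 #1 and siADAR1 #2. Poly(A) RNA was sequenced in 6 libraries, 2 for each transfection, from a single cell line with a single control siRNA. The study's methods describe them as independent biological replicates, which the labels do not detail, and the time between transfection and RNA extraction is not given in the labels.

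The libraries held between 30114840 and 50029763 reads on genes. The transcript of ADAR, the silenced gene, was counted with 10015 and 11472 reads in siControl, with 1420 and 1788 reads after siADAR1 #1 and with 1467 and 1999 after siADAR1 #2. Its log2 fold change (log2FC) was -2.71 (SE 0.30, adjusted p-value = 0.00295, limma) with siADAR1 #1 and -2.35 (SE 0.30, adjusted p-value = 0.00128) with siADAR1 #2. Among the markers of the labelled cell type, the thyroid transcription factor NKX2-1 had no read in any library, whereas PAX8, another thyroid transcription factor, had between 2242 and 15557 reads. The summed level of the 7 thyroid markers was 14298 and 16115 normalized counts in siControl, 10509 and 15226 with siADAR1 #1, and 2819 and 5705 with siADAR1 #2. The 5 epithelial markers summed to between 67785 and 106204 normalized counts in every library and the 5 fibroblast markers to between 18.7 and 63.2. The 5 macrophage and leukocyte markers summed to 315 and 491 normalized counts in siControl, 586 and 764 with siADAR1 #1, and 852 and 1622 with siADAR1 #2, and the 4 endothelial markers to between 93.8 and 174. The part of these marker differences in the results below was not tested.

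MMPs are zinc-dependent proteases that cut collagens, other matrix proteins and cell-surface proteins. Most are secreted as inactive precursors, but the membrane-type MMPs are anchored at the cell surface and some of them activate other MMPs. ADAMs are mainly membrane proteins. Those with a catalytic zinc site shed growth factors, cytokines and receptors from the cell surface, and those without one act in adhesion and as ligands. ADAMTS proteins are secreted, bind the matrix through thrombospondin repeats and cut proteoglycans, procollagens or von Willebrand factor, according to the member. TIMPs bind the active site of these proteases, and TIMP2 also takes part in the activation of pro-MMP2 by MMP14 at the cell surface. In epithelial tumors these enzymes are best known for their part in invasion and in growth factor release.

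A gene was counted as expressed when its mean deposited log2 value over the 6 libraries was at least log2 of 10, which corresponds to 7.62 normalized counts. Of the 66 members, 32 were expressed: 9 MMPs, 11 ADAMs, 10 ADAMTS genes and 2 TIMPs. At a limit of 50 in place of 10, 24 were expressed, and the 8 that dropped out were ADAM8, ADAM11, ADAMTS7, ADAMTS9, ADAMTS13, MMP1, MMP17 and MMP23B. In 30 of the 32 the mean of each transfection was itself past the limit, and the exceptions were ADAM8 and MMP1, whose mean with siADAR1 #1 was under it. All 6 membrane-type MMPs were expressed (MMP14, MMP15, MMP16, MMP17, MMP24 and MMP25), against 3 of the other 17 MMPs (MMP1, MMP11 and MMP23B). On chromosome 11, where 9 MMP genes lie side by side (11:102520508-102955732, GRCh38), MMP1 was the only expressed gene, and each of the other 8 (MMP3, MMP7, MMP8, MMP10, MMP12, MMP13, MMP20 and MMP27) had at most 8 reads in any library.

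The 34 members that were not expressed had a median of 4 reads in their highest library. The gelatinases MMP2 and MMP9, which cut denatured collagen and basement membrane collagen, were both among them. MMP2 had 35 and 7 reads in siControl, 2 and 1 with siADAR1 #1 and 1 and 11 with siADAR1 #2, so that its highest value came from a single siControl library. MMP9 had 4 and 1 reads in siControl, 9 and 11 with siADAR1 #1 and 0 and 3 with siADAR1 #2. TIMP3, a matrix-bound inhibitor of MMPs and ADAMs, and TIMP4 had at most 2 reads in any library. Apart from MMP2 and MMP19, none of the members that were not expressed had more than 17 reads, and ADAM2, ADAM7, ADAM18, ADAM30, MMP26 and MMP27 had none in any library. A count of 0 allows up to 3 reads, or between 2.81 and 4.39 normalized counts, for counting error only.

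RefSeq promoter sequences (GRCh38.p14, 250 bases before to 50 after the start site) were at hand for 39 of the 66 members. Stretches of them are shown for a pair of core promoter motifs, which were searched after the levels were known and are given as a description. GGGCGG, the core of the GC box, stood on either strand in 18 of 20 promoters of expressed members (90.0%) and in 8 of 19 of the other members (42.1%), against 44.6% of all 27305 promoters. TATAAA, the TATA box letters, stood on either strand in none of the 20 and in 8 of the 19 (42.1%), against 12.0% of all. The shares of all promoters cover genes whether or not they were expressed in these cells. Shares for other expressed or other silent genes were not computed, so the contrast cannot be read as particular to these families. Counted from the start site, the match began at -30 in MMP7, -31 in MMP10 and -28 in MMP26. In the others it began at -72 (MMP20), -78 (ADAMTS10, opposite strand), -92 (MMP21), -110 (MMP8) and 39 (ADAM21). Whether any match serves as a TATA box was not tested. The letters of these motifs do not overlap. The following stretches of 30 bases, written on the strand of the gene, have the match in capitals, CCGCCC being GGGCGG on the opposite strand.
MMP14, expressed, chr14:22836507-22836536, plus strand: aggagggcactgGGGCGGggacggaggaga
TIMP1, expressed, chrX:47582289-47582318, plus strand: cctttcgtcggcCCGCCCcttggcttctgc
ADAM10, expressed, chr15:58749883-58749912, minus strand: ggggacgggtagGGGCGGgaggtaggggcg
ADAM17, expressed, chr2:9555884-9555913, minus strand: cgcaccggcgtgGGGCGGggcaagcggagc
MMP7, not expressed, chr11:102530760-102530789, minus strand: gctgagaagctaTATAAAtttctgcagtca
MMP8, not expressed, chr11:102725047-102725076, minus strand: actaaatcacatTATAAAattgcaaaactg
MMP10, not expressed, chr11:102780642-102780671, minus strand: gcattgtctctgTATAAAagaaaggccact
MMP20, not expressed, chr11:102625387-102625416, minus strand: cctgtttgactcTATAAAaggagctcaagg

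Levels between genes were compared as normalized counts per kilobase of transcript. In siControl cells the 10 highest members were ADAM9 (4852), MMP14 (4800.5), TIMP1 (4249), TIMP2 (2645), ADAM19 (1441), ADAM17 (1113), ADAM10 (1017), ADAM15 (729), ADAMTS12 (234) and ADAM32 (125). Together they made up 97.0% of the summed level per kilobase of all members. The ADAMs held 43.3% of that sum in siControl, the TIMPs 31.6%, the MMPs 23.1% and the ADAMTS genes 2.03%. The MMP share was 14.6% with siADAR1 #1 and 12.2% with siADAR1 #2. It is mostly that of MMP14, which gave 4800.5 of the 5048 summed over the MMPs in siControl. The median log2FC of the 9 expressed MMPs was 0.31 with siADAR1 #1 and 0.25 with siADAR1 #2. The TIMP share was 31.5% with siADAR1 #1 and 51.2% with siADAR1 #2, almost all of it from TIMP1 and TIMP2. In these bulk libraries, a change of RNA per cell cannot be told apart from a change in which cells contributed.

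**Figure D1:**
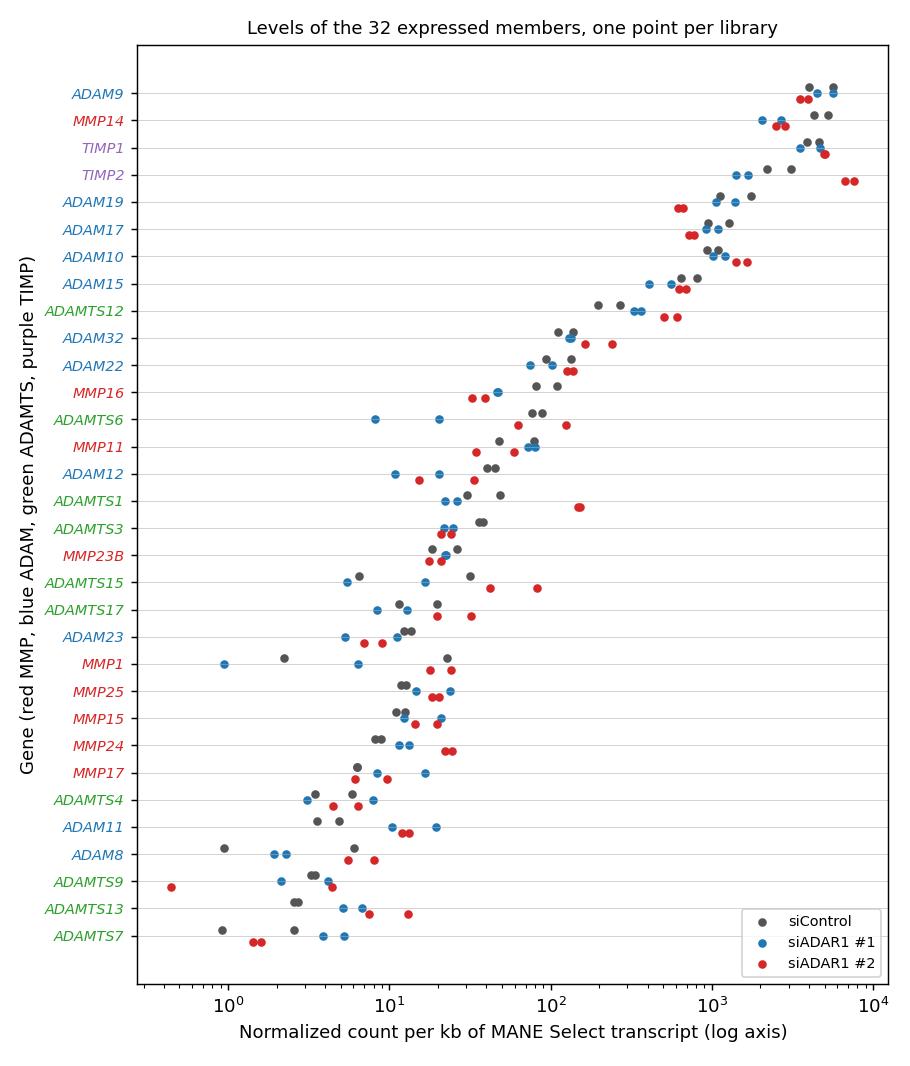
Level of each of the 32 expressed members in normalized counts per kilobase of transcript (log axis), with 1 point per library for siControl (gray), siADAR1 #1 (blue) and siADAR1 #2 (red). ADAM9 and MMP14 were the highest members in siControl, and TIMP2 was the highest with siADAR1 #2.

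The comparisons asked which of these genes changed with each siRNA. A change was called at an adjusted p-value under 0.05 with a log2FC beyond 0.5 in either direction (limma, 20858 genes tested). With siADAR1 #1, 6 of the 32 expressed members (18.8%) were called, 1 higher and 5 lower, where 16.8% of all genes tested were called, 6.18% higher and 10.6% lower. With siADAR1 #2, 12 of the 32 (37.5%) were called, 7 higher and 5 lower, where 26.6% of all genes were called, 11.1% higher and 15.5% lower. The median log2FC of the members was -0.14 with siADAR1 #1 and 0.24 with siADAR1 #2, against -0.02 and -0.01 over all genes tested. Both comparisons share the siControl libraries. MMP14 and MMP16 were called lower with each siRNA (3.41% of all genes), ADAM11 was called higher with each (1.79%), and TIMP2 was called in opposite directions (1.55%).

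With the libraries centred on their medians, which moved the median of all genes with siADAR1 #1 from -0.02 to 0.12, 1951 genes were called higher and 1706 lower with that siRNA, against 1290 and 2212 as deposited. The members then split into 2 higher and 5 lower. After quantile normalization 1692 genes were called higher and 1852 lower, with 2 members higher and 4 lower. Without a mean-variance trend in eBayes (limma), none of the 6 members kept its call with siADAR1 #1 (adjusted p-values 0.0519 to 0.11, 12 members with an unadjusted p-value under 0.05), where 6.46% of all genes were called with that siRNA, and ADAM10 (0.078) and ADAM17 (0.114) lost theirs with siADAR1 #2. The number of members called with siADAR1 #1 fell to 0 without siControl replicate 1 (limma, 12 members with an unadjusted p-value under 0.05), to 3 without siControl replicate 2 and to 2 without siADAR1 #1 replicate 1. The share of all genes called fell with it, to 1.88%, 5.98% and 6.77%. With siADAR1 #2 the number was 6 without siADAR1 #2 replicate 1, where 15.5% of all genes were called.

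**Figure D2:**
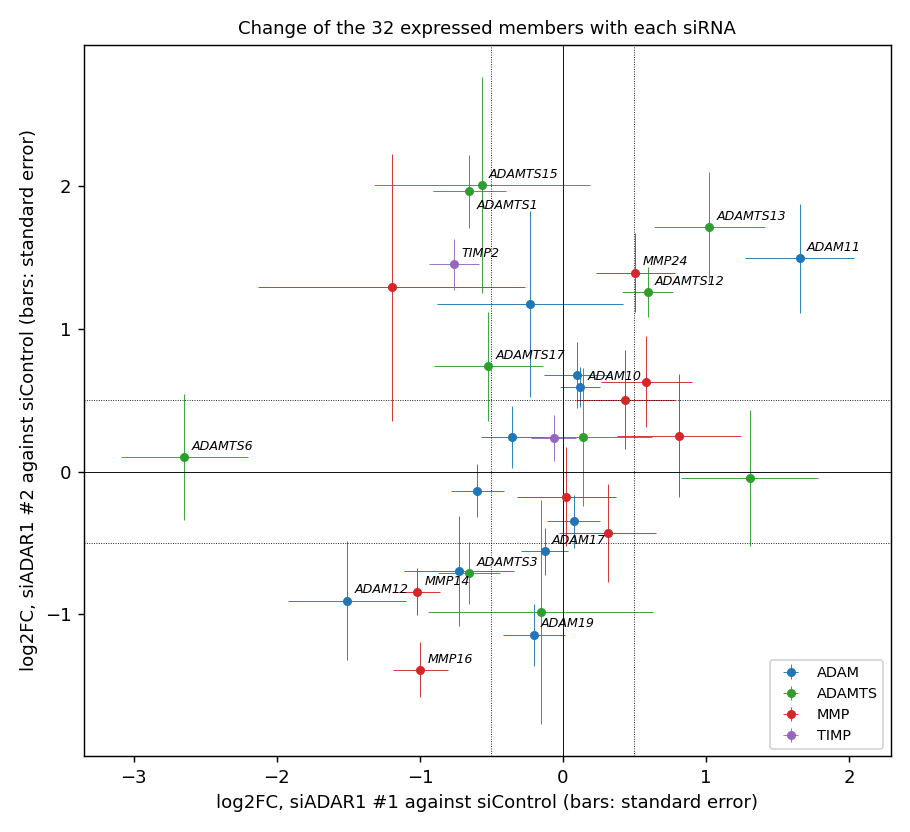
log2 fold change of the expressed members with siADAR1 #1 (x axis) and siADAR1 #2 (y axis) against the same siControl libraries, colored by family, with standard errors as bars, dotted lines at 0.5 in either direction and names for the members called in any comparison. MMP14 and MMP16 lie low on both axes, and TIMP2 lies below 0 on the x axis and above 0 on the y axis.

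Among the membrane-type MMPs, MMP14 and MMP16 were downregulated with each siRNA. MMP14, also known as MT1-MMP, a collagenase of the cell surface that activates pro-MMP2, lies at 14:22836560-22849041 (GRCh38, plus strand). It had 19561 and 15972 normalized counts in siControl, 7598 and 9994 with siADAR1 #1 and 9252 and 10509.7 with siADAR1 #2. Every ADAR1-silenced library was well below the siControl libraries, and the libraries of the siRNAs overlapped each other. The mean was 49.5% of siControl with siADAR1 #1 (log2FC -1.02, SE 0.16, adjusted p-value = 0.00726) and 55.6% with siADAR1 #2 (log2FC -0.84, SE 0.16, adjusted p-value = 0.00698). The siRNAs differed by -0.18 (SE 0.16, adjusted p-value = 0.441), which did not pass the test.

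MMP16, or MT3-MMP, another membrane-type enzyme that activates pro-MMP2, lies on chromosome 8. It had 1264 and 935 normalized counts in siControl, 547 and 540.1 with siADAR1 #1 and 376 and 456 with siADAR1 #2. The 4 silenced libraries all stood below the siControl libraries. The mean was 1099.8 ± 233 (SD, n = 2) in siControl, 544 ± 4.89 with siADAR1 #1 and 416 ± 55.9 with siADAR1 #2, that is, 49.4% and 37.8% of siControl. Its log2FC was -1.0 with siADAR1 #1 (SE 0.19, adjusted p-value = 0.013) and -1.39 with siADAR1 #2 (SE 0.19, adjusted p-value = 0.00177). For MMP14, the adjusted p-value without siControl replicate 1 was 0.0678 with siADAR1 #1 and 0.0621 with siADAR1 #2, and 0.052 with siADAR1 #2 without siADAR1 #2 replicate 1. For MMP16 with siADAR1 #1 it was 0.0981 without siControl replicate 1 and 0.0548 without siADAR1 #1 replicate 1, whereas the MMP16 call with siADAR1 #2 held without each library.

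MMP24 (20:35226690-35276998, plus strand), or MT5-MMP, a membrane-type MMP best known from neural tissue, moved the other way from a low level. It had 35.9 and 38.8 normalized counts in siControl, 58 and 50.2 with siADAR1 #1 and 108 and 96.7 with siADAR1 #2. The siADAR1 #2 libraries were above all others. It rose with siADAR1 #2 (log2FC 1.39, SE 0.28, adjusted p-value = 0.0076) and had 0.50 with siADAR1 #1 (adjusted p-value = 0.252), and the siRNAs differed by -0.89 (adjusted p-value = 0.0376). Without siADAR1 #2 replicate 1, its adjusted p-value with siADAR1 #2 was 0.0538. Its exons overlap those of MMP24OS on the opposite strand over 22.1% of their length, and the sources used here do not say whether the counting used the strand. The other 3 membrane-type MMPs (MMP15, MMP17 and MMP25) were not called with either siRNA, and the median of the 6 was 0.47 with siADAR1 #1 and 0.38 with siADAR1 #2.

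None of the other MMPs was called with either siRNA or between them. MMP1, the interstitial collagenase and the only expressed member of its class, is given although the fixed rule does not name it, and was chosen after its values were seen, since they scattered within groups: 4 and 44 reads in siControl, 2 and 10 with siADAR1 #1 and 42 and 24 with siADAR1 #2. MMP11, or stromelysin-3, was the only expressed gene of the stromelysins and matrilysins, and MMP23B, whose near-identical copy MMP23A had no read in any library, was the only one of the remaining class.

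**Figure D3:**
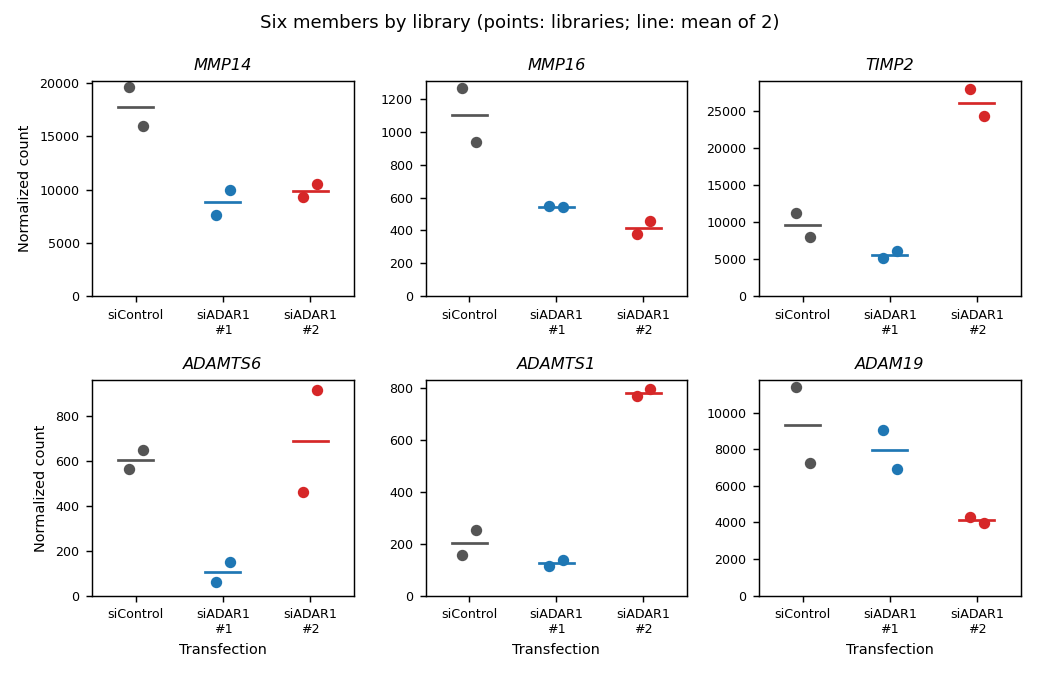
Normalized counts of MMP14, MMP16, TIMP2, ADAMTS6, ADAMTS1 and ADAM19 in each library (points) with the mean of each transfection (lines, n = 2). For MMP14 and MMP16 the 4 ADAR1-silenced libraries lie below both siControl libraries, and TIMP2 and ADAMTS6 separate the siRNAs from each other.

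Of the inhibitors, TIMP2 changed with each siRNA and in opposite directions. TIMP2, which inhibits MMPs and forms a complex with MMP14 and pro-MMP2, lies at 17:78852977-78925387 (minus strand). It had 11294 and 8025 normalized counts in siControl, 5137 and 6135 with siADAR1 #1 and 27924 and 24292 with siADAR1 #2. The siADAR1 #1 libraries were the lowest and the siADAR1 #2 libraries the highest, with no overlap between the transfections. TIMP2 fell to 58.3% of siControl with siADAR1 #1 (log2FC -0.76, SE 0.18, adjusted p-value = 0.0235) and rose to 270.3% with siADAR1 #2 (log2FC 1.45, SE 0.18, adjusted p-value = 0.00108). The difference between the siRNAs was -2.21 (SE 0.18, adjusted p-value = 0.000201). The fall with siADAR1 #1 was not called without siControl replicate 1 (-0.51, adjusted p-value = 0.124) or without siADAR1 #1 replicate 1 (-0.63, adjusted p-value = 0.128), while the rise with siADAR1 #2 was called without each library. CEP295NL, on the same strand, overlaps 9.52% of the exon length of TIMP2.

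TIMP1, a secreted inhibitor of most MMPs, had 3536 and 2999.7 normalized counts in siControl, 2705 and 3585 with siADAR1 #1 and 3823 and 3849 with siADAR1 #2. It was not called with either siRNA (log2FC -0.06, adjusted p-value = 0.823, and 0.24, adjusted p-value = 0.311), and its sign with siADAR1 #1 depended on the scaling. Per kilobase, TIMP1 was above TIMP2 in siControl (4249 against 2645) and with siADAR1 #1 (4090.0 against 1543), and below it with siADAR1 #2 (4988 against 7149).

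Among the 7 expressed ADAMs with a catalytic zinc site, 1 was lower with siADAR1 #1, and 1 was higher and 2 were lower with siADAR1 #2. Called were thus 14.3% and 42.9% of them, where 16.8% and 26.6% of all genes tested were. ADAM10 (15:58588809-58749791, minus strand), the main sheddase of NOTCH receptors and cadherins, had 12255 and 10449.6 normalized counts in siControl, 13433 and 11273 with siADAR1 #1 and 18464 and 15754 with siADAR1 #2. It was highest in the siADAR1 #2 libraries and rose with that siRNA (log2FC 0.59, SE 0.14, adjusted p-value = 0.0164), with 0.12 with siADAR1 #1 (adjusted p-value = 0.607). ADAM17 (2:9488486-9556732, minus strand), the sheddase of TNF and of most EGF receptor ligands, had 5605 and 4171 normalized counts in siControl, 4819.8 and 4061 with siADAR1 #1 and 3170.5 and 3404 with siADAR1 #2. It was lowest in the siADAR1 #2 libraries and fell with that siRNA (log2FC -0.56, SE 0.16, adjusted p-value = 0.0363), with -0.13 with siADAR1 #1 (adjusted p-value = 0.642), a value whose sign turned with median-centred libraries. Both calls were close to the threshold: that of ADAM10 was lost without siControl replicate 2 (0.48, adjusted p-value = 0.0964) or siADAR1 #2 replicate 1 (0.48, adjusted p-value = 0.117), and that of ADAM17 without siControl replicate 1 (-0.34, adjusted p-value = 0.201), siADAR1 #2 replicate 1 (-0.51, adjusted p-value = 0.16) or siADAR1 #2 replicate 2 (-0.61, adjusted p-value = 0.0833). The ADAM17 call was also lost with no filter on low values (0.07) and after quantile normalization (-0.41, 0.0609), and genes on the opposite strand, among them IAH1, overlap 11.7% of its exon length.

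ADAM19 (5:157395534-157575775, minus strand), or meltrin beta, which sheds neuregulins, had 11409 and 7268 normalized counts in siControl, 9034 and 6913 with siADAR1 #1 and 4278 and 3978 with siADAR1 #2. The siADAR1 #2 libraries lay below the other 4. It fell to 44.2% of siControl with siADAR1 #2 (log2FC -1.14, SE 0.22, adjusted p-value = 0.00627), a call that held without each library, and had -0.20 with siADAR1 #1 (adjusted p-value = 0.567). The difference between the siRNAs was 0.94 (adjusted p-value = 0.0116). ADAM12 (10:126012381-126388477, minus strand), or meltrin alpha, which sheds HBEGF, had 362 and 319 normalized counts in siControl, 86 and 161 with siADAR1 #1 and 121 and 268 with siADAR1 #2. All 4 silenced libraries were below siControl. It fell with siADAR1 #1 (log2FC -1.51, SE 0.41, adjusted p-value = 0.0408) and had -0.90 with siADAR1 #2 (SE 0.41, adjusted p-value = 0.143). The first call was lost without siControl replicate 1 (adjusted p-value = 0.197), siControl replicate 2 (0.147) or siADAR1 #1 replicate 1 (0.198), with no filter (0.0735) and after quantile normalization (0.0504), and ADAM12 was called with siADAR1 #2 without siADAR1 #2 replicate 2 (-1.47, adjusted p-value = 0.0346).

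ADAM9, a sheddase of broad expression and the highest member per kilobase in siControl, and ADAM15, which carries an RGD sequence that binds integrins, were not called with either siRNA. ADAM9 had 23362 and 16538 normalized counts in siControl, 23294 and 18391 with siADAR1 #1 and 16346 and 14580.3 with siADAR1 #2 (log2FC 0.07 and -0.35, adjusted p-values 0.824 and 0.199). ADAM15 had 1892 and 2388 normalized counts in siControl, 1201 and 1634 with siADAR1 #1 and 2038 and 1838 with siADAR1 #2. Its log2FC was -0.60 with siADAR1 #1 (SE 0.19, adjusted p-value = 0.0601) and -0.13 with siADAR1 #2 (adjusted p-value = 0.635). ADAM15 was called lower with siADAR1 #1 without siADAR1 #1 replicate 2 (-0.82, adjusted p-value = 0.0244), with the replicate number as a block (0.0334), with the filter at 50 (0.044) and with robust eBayes (0.048), whereas its adjusted p-value was up to 0.279 in the other alternatives. These are levels of the whole gene and do not separate its splice forms.

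Of the ADAMs without a catalytic zinc site, 4 of 8 were expressed, and ADAM11 alone was called, with each siRNA. That was 25.0% of those expressed with each siRNA, where 16.8% and 26.6% of all genes tested were called. ADAM11 (17:44758988-44781846, plus strand), known mainly from the nervous system, had 15 and 22 reads in siControl, 96 and 38 with siADAR1 #1 and 54 and 38 with siADAR1 #2, or 16.3 and 22.4, 89.8 and 47.7 and 61.2 and 55.7 normalized counts. It was above siControl in all 4 silenced libraries (log2FC 1.65, SE 0.38, adjusted p-value = 0.0224 with siADAR1 #1, and 1.49, SE 0.38, adjusted p-value = 0.021 with siADAR1 #2). At this low depth the call depended on single libraries: with siADAR1 #1 the adjusted p-value was 0.131 without siControl replicate 1, 0.0756 without siControl replicate 2 and 0.132 without siADAR1 #1 replicate 1, and with siADAR1 #2 it was 0.12, 0.0569, 0.0968 and 0.0612 without siControl replicate 1, siControl replicate 2, siADAR1 #2 replicate 1 and siADAR1 #2 replicate 2. ADAM32 had 125, 132 and 202 normalized counts per kilobase in siControl, siADAR1 #1 and siADAR1 #2 cells and was not called (log2FC 0.68, adjusted p-value = 0.06 with siADAR1 #2), although it was without siADAR1 #2 replicate 2 (0.96, adjusted p-value = 0.0297).

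Among the called changes of the members, the largest with each siRNA was that of an ADAMTS gene, ADAMTS6 with siADAR1 #1 and ADAMTS1 with siADAR1 #2. Of the 10 expressed ADAMTS genes, 1 was lower with siADAR1 #1, and 3 were higher and 1 lower with siADAR1 #2. That was 10.0% and 40.0% called, where 16.8% and 26.6% of all genes tested were. ADAMTS6, which cuts matrix proteins and takes part in heart and skeletal development, lies at 5:65148738-65481920 (minus strand). It had 564 and 649 normalized counts in siControl, 59.8 and 148 with siADAR1 #1 and 460.4 and 917 with siADAR1 #2. The siADAR1 #1 libraries were far below the other 4, and the siADAR1 #2 libraries lay around those of siControl. It fell to 17.2% of siControl with siADAR1 #1 (log2FC -2.65, SE 0.44, adjusted p-value = 0.00824), had 0.10 with siADAR1 #2 (adjusted p-value = 0.89), and differed between them by -2.75 (SE 0.44, adjusted p-value = 0.00242). With one siControl library left out the fold change with siADAR1 #1 was -2.75 or -2.55, with adjusted p-values of 0.0704 and 0.0695.

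ADAMTS1, which cuts versican and aggrecan and is known as an inhibitor of angiogenesis, lies at 21:26835755-26845409 (minus strand). It had 157 and 251 normalized counts in siControl, 114 and 137 with siADAR1 #1 and 767 and 794 with siADAR1 #2. The siADAR1 #2 libraries were above all others and the siADAR1 #1 libraries below all others. ADAMTS1 rose to 383% of siControl with siADAR1 #2 (log2FC 1.96, SE 0.26, adjusted p-value = 0.00135) and had -0.66 with siADAR1 #1 (adjusted p-value = 0.118), a difference of -2.62 (SE 0.26, adjusted p-value = 0.000361). ADAMTS5, its neighbor on chromosome 21 and another aggrecanase, had at most 2 reads in any library.

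ADAMTS12 (5:33523535-33892019, minus strand), the highest ADAMTS gene per kilobase and an enzyme that cuts cartilage oligomeric matrix protein, had 2321 and 1686 normalized counts in siControl, 2838 and 3134 with siADAR1 #1 and 5200.3 and 4314 with siADAR1 #2. The transfections did not overlap, with siControl lowest and siADAR1 #2 highest. It rose with siADAR1 #2 (log2FC 1.26, SE 0.18, adjusted p-value = 0.00178) and had 0.59 with siADAR1 #1 (SE 0.18, adjusted p-value = 0.0531), which passed the test in 6 of the alternatives. The calls of ADAMTS1 and ADAMTS12 with siADAR1 #2 held without each library.

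ADAMTS13 (9:133414358-133459402, plus strand), the protease of von Willebrand factor, had 11 and 11 reads in siControl, 32 and 18 with siADAR1 #1 and 29 and 39 with siADAR1 #2. It was above siControl in every silenced library and rose with siADAR1 #2 (log2FC 1.71, SE 0.39, adjusted p-value = 0.0131), with 1.02 (adjusted p-value = 0.109) with siADAR1 #1. ADAMTS3 (4:72280969-72569221, minus strand), a procollagen N-proteinase that also activates the lymphangiogenic factor VEGFC, had 223 and 238 normalized counts in siControl, 137 and 155 with siADAR1 #1 and 149.7 and 130.4 with siADAR1 #2. All silenced libraries were below siControl, and the fall passed the test with siADAR1 #2 (log2FC -0.71, SE 0.22, adjusted p-value = 0.0411), with -0.66 (adjusted p-value = 0.0732) with siADAR1 #1. Leaving out 1 library ended the ADAMTS3 call with siADAR1 #2 in each of 4 cases (without siControl replicate 1 or 2, adjusted p-values 0.122 and 0.155, and without siADAR1 #2 replicate 1 or 2, 0.0961 and 0.164), and the ADAMTS13 call without siControl replicate 1 or 2 (0.0655 and 0.0657) or siADAR1 #2 replicate 2 (0.0782). ADAMTS3 also lost its call with no filter (0.0585) and with median-centred libraries (0.0503).

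The difference between the siRNAs was tested directly. Of the 32 expressed members, 8 (25.0%) differed, where 32.8% of all genes tested did (16.1% higher and 16.7% lower with siADAR1 #1, or 3350 and 3488 genes). With median-centred libraries 4274 genes were higher and 2854 lower, and 3 members were higher and 5 lower. ADAM19 was higher with siADAR1 #1, and ADAMTS1, ADAMTS6, ADAMTS12, ADAMTS15, ADAMTS17, MMP24 and TIMP2 were lower. ADAMTS15, another proteoglycan-cleaving member, had 174 and 38 reads in siControl, 107 and 26 with siADAR1 #1 and 438 and 173 with siADAR1 #2, so that the replicates of a transfection differed strongly. Its difference was -2.57 (SE 0.76, adjusted p-value = 0.0306), while its change against siControl was 2.01 with siADAR1 #2 (SE 0.76, adjusted p-value = 0.0838) and was called with the replicate number as a block (adjusted p-value = 0.00225) or without siControl replicate 1 (3.11, adjusted p-value = 0.0379). Without siControl replicate 2 that change was 0.90 (adjusted p-value = 0.423). ADAMTS17 had 115 and 71, 87 and 42 and 180 and 86 reads in the same order and a difference of -1.26 (adjusted p-value = 0.0342). The differences of ADAMTS1, ADAMTS6 and TIMP2 were called without each library. That of ADAM19 had an adjusted p-value of 0.0651 without siADAR1 #1 replicate 1 and 0.0508 without siADAR1 #2 replicate 2. Without replicate 1 of siADAR1 #1 or of siADAR1 #2, ADAMTS12 had 0.0862 and 0.119. Without siADAR1 #1 replicate 2 or siADAR1 #2 replicate 1, ADAMTS15 had 0.142 each time and ADAMTS17 had 0.144 and 0.185. The difference of MMP24 lost its call whichever library was left out (adjusted p-values 0.0523 to 0.16). Without siADAR1 #2 replicate 1, the number of members that differed was 4, where 23.1% of all genes did. It was also 4 without a trend in eBayes (29.1% of all genes), where ADAM19 (0.0562), ADAMTS12 (0.0741), ADAMTS15 (0.09) and ADAMTS17 (0.0682) were not called. With no filter ADAMTS15 (0.0564), ADAMTS17 (0.0575) and MMP24 (0.0571) were not called, nor were ADAMTS17 and MMP24 under median-centred or quantile-normalized libraries (0.0585 to 0.0821) or ADAMTS15 with robust eBayes (0.117).

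With the 4 ADAR1-silenced libraries taken as 1 group, none of the members was called (limma, 8 at an unadjusted p-value under 0.05), where 0% of the 20858 genes tested were called (2916 at an unadjusted p-value under 0.05). The average of the changes with each siRNA, tested against the spread within the 3 transfections, called 9 members: ADAM11, ADAMTS12, ADAMTS13 and MMP24 higher, and ADAM12, ADAM19, ADAMTS3, MMP14 and MMP16 lower, that is, 9 of 32 where 17.2% of all genes were called. All 4 silenced libraries lay above both siControl libraries in 5 of the 32 members and below both in 5, against 12% and 16.6% of all genes tested.

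The 12 expressed members not described by rule were ADAM8, ADAM22, ADAM23, ADAMTS4, ADAMTS7, ADAMTS9, MMP1, MMP11, MMP15, MMP17, MMP23B and MMP25. Since the rule takes every member called with an siRNA or between the siRNAs, these are uncalled by construction. Their log2FC ranged from -1.20 (MMP1) to 1.30 (ADAMTS7) with siADAR1 #1 and from -0.98 (ADAMTS9) to 1.29 (MMP1) with siADAR1 #2, and their smallest adjusted p-values were 0.0996 and 0.182.

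Genes that work with these proteases were read from lists of 65 genes, 54 of which were expressed. Of the 54, 9 were called higher and 10 lower with siADAR1 #1, and 11 higher and 14 lower with siADAR1 #2, that is, 35.2% and 46.3% of them against 16.8% and 26.6% of all genes tested. The siRNAs called the same direction in 8 of them, 2 higher (1.79% of all genes) and 6 lower (3.41%), and opposite directions in 5 (1.55%), among them PLAU, PCOLCE2, HBEGF and CD44. These genes were chosen with earlier results of these data known. In 4 of the 54 (BCAN, NCAN, TLL1 and TNF) the mean of at least 1 transfection was under the limit for expression. NCAN and TLL1 passed it only through the transfection in which they were highest. BCAN passed it only through the silenced libraries and is counted among the genes called higher with each siRNA. The counts above include 2 calls with each siRNA from these 4 genes, and the shares are given as a description. In the list of metalloproteinase inhibitors other than TIMPs, 3 of the 4 expressed genes were lower with each siRNA, where 3.41% of all genes tested were. TFPI2, which the list includes, is a matrix-associated inhibitor of serine proteases. It had 4145 and 3526 normalized counts in siControl, 1717 and 2466 with siADAR1 #1 and 1476 and 1609.8 with siADAR1 #2 (log2FC -0.89, adjusted p-value = 0.0162, and -1.31, adjusted p-value = 0.00185). SPOCK1, a testican that inhibits pro-MMP2 activation, had 1186 and 1283, 273 and 428 and 193 and 374 normalized counts in the same order (log2FC -1.84, adjusted p-value = 0.00985, and -2.19, adjusted p-value = 0.00231). RECK, a membrane-anchored inhibitor of MMP14, MMP2 and MMP9, had 1359 and 868, 629 and 569 and 672 and 679.7 (log2FC -0.86, adjusted p-value = 0.0309, and -0.68, adjusted p-value = 0.0475). In these 3 genes, every silenced library lay below the siControl libraries. Without siControl replicate 1, RECK had -0.53 with siADAR1 #1 (adjusted p-value = 0.152) and -0.36 with siADAR1 #2 (0.249).

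**Figure D4:**
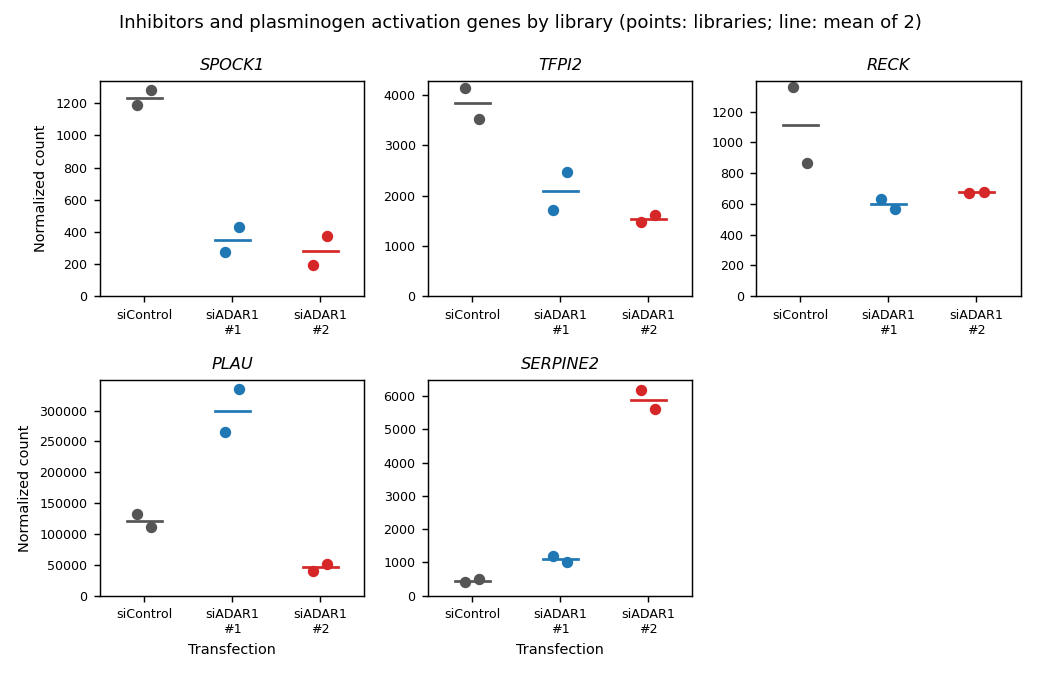
Normalized counts of the inhibitors SPOCK1, TFPI2 and RECK and of the plasminogen activation genes PLAU and SERPINE2 in each library (points) with the mean of each transfection (lines, n = 2). The inhibitors lie lower with each siRNA, and PLAU lies above siControl with siADAR1 #1 and below it with siADAR1 #2.

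Plasmin cuts matrix proteins and activates several pro-MMPs. Of the 6 expressed genes of plasminogen activation, 3 were higher and 1 lower with siADAR1 #1, and 1 was higher and 3 lower with siADAR1 #2, or 66.7% called with each, where 16.8% and 26.6% of all genes were. SERPINE2, or protease nexin-1, which inhibits plasminogen activators, rose with each siRNA, from 407 and 494 normalized counts in siControl to 1198 and 1001 with siADAR1 #1 and 6187 and 5601 with siADAR1 #2 (log2FC 1.28, adjusted p-value = 0.00343, and 3.71, adjusted p-value = 9.78e-05). PLAU, the urokinase activator of plasminogen, had 132202 and 110938 normalized counts in siControl, 264478 and 334324 with siADAR1 #1 and 40442 and 51273 with siADAR1 #2. It rose with siADAR1 #1 (log2FC 1.30, adjusted p-value = 0.00409) and fell with siADAR1 #2 (-1.41, adjusted p-value = 0.00101).

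In the ADAM10 and ADAM17 maturation list, 1 of 9 expressed genes was lower with siADAR1 #1, and 2 were higher and 1 lower with siADAR1 #2. That was 11.1% and 33.3% called, where 16.8% and 26.6% of all genes tested were. TSPAN5 and TSPAN14, tetraspanins that bind ADAM10, were lower with siADAR1 #1 (TSPAN5, -0.93, adjusted p-value = 0.00983) and with siADAR1 #2 (TSPAN14, -0.72, adjusted p-value = 0.00465). FRMD8, which stabilizes the complex of iRhom and ADAM17, was higher with siADAR1 #2 (0.54, adjusted p-value = 0.0243). The 4 proprotein convertases remove the propeptides of ADAMs and membrane-type MMPs. None of them was called with siADAR1 #1, and 2 were higher with siADAR1 #2. Of all genes tested, 16.8% and 26.6% were called. Higher with siADAR1 #2 were PCSK5 (1.58, adjusted p-value = 0.025) and PCSK7 (0.80, adjusted p-value = 0.0149), while PCSK6 was not called (-0.39, adjusted p-value = 0.264). The change of PCSK7 with siADAR1 #2 ranged from 0.54 to 1.07 with 1 library left out. Its call was lost without a trend in eBayes. PCSK5 had 107 and 127 reads in siControl, 220 and 136 with siADAR1 #1 and 542 and 153 with siADAR1 #2. Its change with siADAR1 #2 was 0.85 (adjusted p-value = 0.0936) without siADAR1 #2 replicate 1 and 2.30 without siADAR1 #2 replicate 2, and it was not called without siControl replicate 1 (0.137), without siControl replicate 2 (0.102) or without a trend in eBayes (0.0746).

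Membrane proteins shed by ADAM10 or ADAM17 were all expressed (14 of 14). Of these, 2 were higher and 2 lower with siADAR1 #1, and 1 was higher and 4 lower with siADAR1 #2. Called were thus 28.6% and 35.7%, where 16.8% and 26.6% of all genes tested were. AREG, an EGF receptor ligand released by ADAM17, rose with siADAR1 #2 (2.68, adjusted p-value = 0.000509). HBEGF, another EGF receptor ligand, rose with siADAR1 #1 (1.07, adjusted p-value = 0.0102) and fell with siADAR1 #2 (-1.35, adjusted p-value = 0.00196). NOTCH1, a receptor cut by ADAM10, fell with siADAR1 #2 (-0.71, adjusted p-value = 0.0044).

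Of the hyalectans, the proteoglycans cut by ADAMTS1, ADAMTS4 and ADAMTS5, VCAN, or versican, was lower with siADAR1 #1 (-0.91, adjusted p-value = 0.00395). The brain proteoglycan BCAN had 8 and 6 reads in siControl, where its mean was under the limit for expression. It had 48 and 32 reads with siADAR1 #1 and 45 and 20 with siADAR1 #2. Since BCAN entered the test only through the silenced libraries, its log2FC of 2.21 and 2.09 are given as a description. NCAN, another brain proteoglycan, had 3 and 3 reads in siControl, 48 and 24 with siADAR1 #1 and 5 and 1 with siADAR1 #2. Since NCAN entered the test only through the siADAR1 #1 libraries, its log2FC of 2.86 there is given as a description. Of the astacins and other secreted metalloproteinases, 5 of 10 were expressed. With siADAR1 #1, 1 was higher and 1 lower, and with siADAR1 #2, 1 was higher and 2 lower. These calls were 40.0% and 60.0% of the 5, where 16.8% and 26.6% of all genes tested were called. PCOLCE2, which enhances procollagen C-proteinase, was higher with siADAR1 #1 (0.94, adjusted p-value = 0.0126) and lower with siADAR1 #2 (-1.57, adjusted p-value = 0.000896). Of the tolloid-like proteinases, TLL2 was lower with each (-0.59, adjusted p-value = 0.0298, and -1.01, adjusted p-value = 0.00198), and TLL1 had 10 and 3 reads in siControl, 0 and 1 with siADAR1 #1 and 102 and 46 with siADAR1 #2. TLL1 entered the test only through the siADAR1 #2 libraries, so its log2FC of 3.44 there is likewise a description. TLL1 is the gene of this list counted as higher with siADAR1 #2.

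The ADAMTS-like proteins share the ancillary domains of ADAMTS enzymes without the protease. Of 4 expressed, ADAMTSL5 was higher (1.77, adjusted p-value = 0.00468) and ADAMTSL3 lower (-0.87, adjusted p-value = 0.0443, and -0.52 and 0.23 without siControl replicate 1) with siADAR1 #1, and ADAMTSL4 was higher with siADAR1 #2 (1.12, adjusted p-value = 0.00895). Of the 5 inducers and partners, none was called with siADAR1 #1 and 3 (60.0%) with siADAR1 #2, where 16.8% and 26.6% of all genes tested were. With siADAR1 #2, LRP1, the endocytic receptor that clears proteases and TIMPs, was higher (1.26, adjusted p-value = 0.000979), as was the matrix protein THBS2 (1.74, adjusted p-value = 0.0116). TGFB1, a cytokine that induces several of these genes, was lower (-0.54, adjusted p-value = 0.0244). THBS2 had only 9 and 8 reads in siControl, 14 and 10 with siADAR1 #1 and 25 and 30 with siADAR1 #2. Its change ranged from 1.44 to 2.03 with 1 library left out. The call of TGFB1 was lost after quantile normalization and without a trend in eBayes.

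Of the 36 changes called in the partner genes chosen by rule, 17 were called without each library. Among these were PLAU, SERPINE2 and VCAN with siADAR1 #1. With siADAR1 #2 they were, among others, AREG, HBEGF, LRP1, NOTCH1, PCOLCE2, PLAU, SERPINE2, SPOCK1, TFPI2, TLL2 and TSPAN14, beside BCAN and TLL1. TLL1, NCAN with siADAR1 #1, and BCAN with each siRNA entered the test only through the libraries in which they were high. Their calls are counted in the 36 as a description only, and BCAN was under the limit for expression in siControl. Each of the other 19, among them RECK with each siRNA and TFPI2 and SPOCK1 with siADAR1 #1, lost its call without at least 1 library, with adjusted p-values of up to 0.249. In all 12 of them with siADAR1 #1, siControl replicate 1 was such a library. Among the 36, those of RECK with siADAR1 #2 and ADAMTSL3 with siADAR1 #1 lost their call in the most other settings, RECK with adjusted p-values of up to 0.109 and ADAMTSL3 of up to 0.117.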

How the data were processed

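RNA-seq was performed on 6 poly(A) libraries (75 bp paired-end reads), 2 for each transfection. The labels describe 3 samples, and the 2 columns of each were taken as its replicates. According to the labels and the study's methods, the authors trimmed the reads, counted them with featureCounts, ran Salmon in parallel (GRCh38) and normalized with DESeq2, for which their methods give preference to Salmon estimates summarized per gene by tximport. The deposited log2 values are variance-stabilized by the authors, with a lowest value of 0.347736. Undoing the transformation gave normalized counts and whole reads (100% whole within 0.1 of a read, checked below 3000 reads). Every column was used. GENCODE 44 named 57830 of 58333 IDs.

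The log2 values were tested over 20858 genes past the filter (limma 3.58.1 in R 4.3.3, trend, two-sided, Benjamini-Hochberg over all genes), with the 3 transfections sharing the spread (3 residual degrees of freedom). Fits were tested on simulated data. Named members were those called with an siRNA or between siRNAs, MMP14, MMP16, ADAM15, ADAM10, ADAM17, MMP2, MMP9, the TIMPs and the 10 highest per kilobase in siControl; of each list of partner genes, the 3 with the smallest adjusted p-value, beside ADAR. The members and lists were chosen with earlier results of these data known. Alternatives were other filters, scalings, eBayes settings, log2 of the normalized count plus 1, voom with TMM scaling, a replicate block, fits of 4 libraries and each library left out. Reads per library limit the precision; the limit of 3 reads for a count of 0 covers counting error only. Splicing and editing were not analysed here. The values of 1 gene of the plasminogen activation list, which the counts include, are not reported here.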

Additional observations from a re-analysis of the deposited data

Results flagged for a closer look

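TIMP2 was called lower with siADAR1 #1 and higher with siADAR1 #2 against the same siControl libraries. The difference between the siRNAs, tested in the fit of the 3 transfections (limma), was -2.21 (siADAR1 #1 minus siADAR1 #2, SE 0.18, adjusted p-value = 0.000201), with means of 5636 ± 706 normalized counts (SD, n = 2) with siADAR1 #1, 26108 ± 2569 with siADAR1 #2 and 9659 ± 2311 in siControl. No group held 4 libraries or more, so single libraries were not screened for outlying values.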

How the results depend on the processing

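With 2 libraries per transfection and 3 residual degrees of freedom, single libraries moved the counts of called members, and those over all genes tested as well. Leaving out each library in turn gave 0 to 7 members with siADAR1 #1 (6 with all libraries), 6 to 12 with siADAR1 #2 (12), 4 to 10 for the difference between the siRNAs (8) and 0 for the silenced libraries as 1 group (0). Without a trend in eBayes, 0 members were called with siADAR1 #1 (12 at an unadjusted p-value under 0.05) and 4 between the siRNAs. Averaging the changes with each siRNA called 9 members, against 0 for 1 group. The replicate numbers appear only in the column names; same-numbered libraries deviated together with r = 0.106, 0.110 and 0.162 over 20858 genes, which was not taken as pairing. With the replicate block, 8 members were called with siADAR1 #1, 13 with siADAR1 #2, 10 between the siRNAs and 0 as 1 group, where 19.6%, 28.9%, 34.9% and 0% of all genes were called. Over 40 changes of named members and 636 alternatives, 559 kept direction and side of the threshold, 46 lost a call, 15 gained one and 16 turned direction; none of those that turned was called. With median-centred libraries ADAM17 was at 0.017 and TIMP1 at 0.081 with siADAR1 #1. After quantile normalization TIMP1 was at 0.0075 with siADAR1 #1 and ADAM15 at 0.022 with siADAR1 #2. The other turns came from leaving out 1 library, where the values with siADAR1 #1 ranged from -0.0056 to 0.25 for ADAM10, from -0.34 to 0.085 for ADAM17, from -0.53 to 0.12 for ADAM19, from -0.057 to 0.25 for ADAM32, from -0.17 to 0.32 for ADAM9, from -1.68 to 0.54 for ADAMTS15 and from -0.27 to 0.14 for TIMP1. With siADAR1 #2 they ranged from -0.30 to 0.033 for ADAM15 and from -0.39 to 0.60 for ADAMTS6. The alternatives for the differences between the siRNAs and for the partner genes were chosen after seeing the data. The causes were not tested.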

Other observations

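MMP19, a secreted MMP that was not counted as expressed, had 2 and 3 reads in siControl, 2 and 1 with siADAR1 #1 and 28 and 18 with siADAR1 #2. With no filter on low values it was called higher with siADAR1 #2 (log2FC 2.71, SE 0.49, adjusted p-value = 0.0103, limma) and differed between the siRNAs by -3.11 (adjusted p-value = 0.00447). TMEM198B, on the opposite strand, overlaps 17.6% of the exon length of MMP19, and the sources used here do not say whether the counting used the strand. MMP19 was chosen after its values were seen.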
